A study of Homo sapiens with 4 samples.

Results

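Genes that report and restrain signalling through the MAPK cascade were followed in lines of the gastric carcinoma SNU-16 recovered from mice: the dual-specificity phosphatases DUSP4, DUSP5 and DUSP6, the Sprouty genes SPRY1, SPRY2 and SPRY4, the Sprouty-related genes SPRED1 and SPRED2, and the ETS transcription factors ETV4 and ETV5. These 10 were chosen as known feedback genes downstream of the receptor FGFR2. No cut on their values was used, but earlier results of these data were known. Each of the 10 was represented by 1 single-gene probe set, out of 18417 genes on the array, and each lay above the signal minimum (a mean of 5.64 log2 units, the 30th percentile of all rows) that left 14547 genes for testing. The data were 4 arrays, 1 for each combination of the site from which tumour cells were taken (stomach or ovary) and the round of implantation (round 1 or round 2), so that each site and each round had n = 2 arrays. All lines carried the SNU-16 genome and had been injected into the stomach wall of BalB/c nude mice, which lack a thymus and mature T cells but keep other leukocytes. The stomach line of round 1 came from the tumour at the injection site and the ovary line of round 1 from metastases in the ovary, and both were cultured for 7 days before the same lines were injected again, stomach-derived cells giving the stomach line of round 2 and ovary-derived cells the ovary line of round 2. The labels do not say whether tumours of several mice were pooled, and no ages are used here. No culture time was available here for the round 2 lines, and any difference in it cannot be told apart from the round. A SNU-16 line that had not passed through a mouse was not analysed here.

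Fibroblast growth factor receptors are membrane tyrosine kinases that, once activated, recruit the adaptor FRS2 and GRB2 with SOS, load RAS with GTP and pass the signal through RAF and MEK to the kinases ERK1 and ERK2. SNU-16 is known for amplification of FGFR2 and for depending on that receptor. ERK output is held in check by genes that ERK itself induces. DUSP phosphatases dephosphorylate ERK, and Sprouty and SPRED proteins act on the pathway upstream of ERK. ETV4 and ETV5 are ETS factors of the PEA3 group whose transcripts follow FGF signalling, and they are counted here with the feedback genes. Transcripts of these genes are commonly read as a gauge of ERK pathway output, although no protein or phosphorylation was measured here.

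The arrays had medians between 6.80 and 6.84 log2 units over all 33297 rows. Both round 2 labels contradict themselves about the site. For the stomach sample the ovary is entered as the site cultured, and the text on the ovary sample closes with the stomach. Titles and tissue labels were therefore followed. With the round 2 arrays exchanged, each ovary minus stomach difference within round 2 would change its sign. The fitted site differences, the counts by site and the round differences within each site would then change as well. Only the round difference of the means over both sites would keep its value. The epithelial markers EPCAM, CDH1, KRT8, KRT18, KRT19 and CLDN4 had a mean level of 11.70 and 11.73 on the stomach arrays of round 1 and round 2 and of 11.46 and 11.73 on the ovary arrays, all 6 being lower in the ovary than in the stomach array of round 1. Lists of markers of other cells had mean levels by array of 6.12 to 6.24 for 8 leukocyte genes, 5.89 to 6.05 for 7 fibroblast genes, 5.67 to 5.75 for 6 endothelial genes, 6.38 to 6.59 for 7 ovarian genes and 6.73 to 6.96 for 3 mesothelial genes. PTPRC (4.04 on average), DCN (3.87) and PECAM1 (4.88) lay below the signal minimum, but 5 of the 8 leukocyte, 5 of the 7 fibroblast, 3 of the 6 endothelial, 5 of the 7 ovarian and all 3 mesothelial genes lay above it. The highest of each list were CD68 (9.75 on average, 9.89 on both stomach arrays and 9.47 and 9.74 on the ovary arrays), COL1A1 (7.59), ESAM (7.04), ZP3 (8.71) and MSLN (7.68). ESAM was higher in round 2 at both sites (6.56 on both round 1 arrays, 7.67 and 7.39 on those of round 2) and ZP3 was lower (9.01 and 9.04, then 8.41 and 8.38). The part of such cells in the differences of the feedback genes was not tested. Host cells would be mouse cells, while the probe sets are annotated to human genes. These marker levels are therefore no measure of host cell content. In bulk RNA, fewer cells of a type and less RNA per cell cannot be told apart. Since each round 2 line is a descendant of the round 1 line from its site, the spread between arrays of 1 site is that between passages of a lineage. The p-values between sites take this spread as replicate error, and it may be partly technical. The p-values between rounds, unless the site is a block, take instead the spread between the stomach and ovary arrays of a round. That spread includes any difference between the sites.

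The feedback genes differed little between the 4 lines. Their ranges over the arrays ran from 0.060 log2 units in SPRED1 to 0.75 in DUSP4, with a median of 0.29, beside a median range of 0.26 over all genes tested. The mean of the 10 log2 levels was 8.80 in the stomach line of round 1, 8.92 in that of round 2, 8.91 in the ovary line of round 1 and 9.04 in that of round 2, while the mean over all genes tested stayed between 8.01 and 8.03. FGFR2 itself (probe set 7936734) was at 12.94 and 12.93 in the stomach lines and at 12.90 and 12.94 in the ovary lines. Its 4 values thus lay within 0.046 log2 units of each other. The amplified receptor differed by -0.012 between ovary and stomach (95% interval -0.24 to 0.22) and by 0.018 between round 2 and round 1 (-0.16 to 0.20), intervals that come from limma and are not adjusted for the number of genes.

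**Figure D1:**
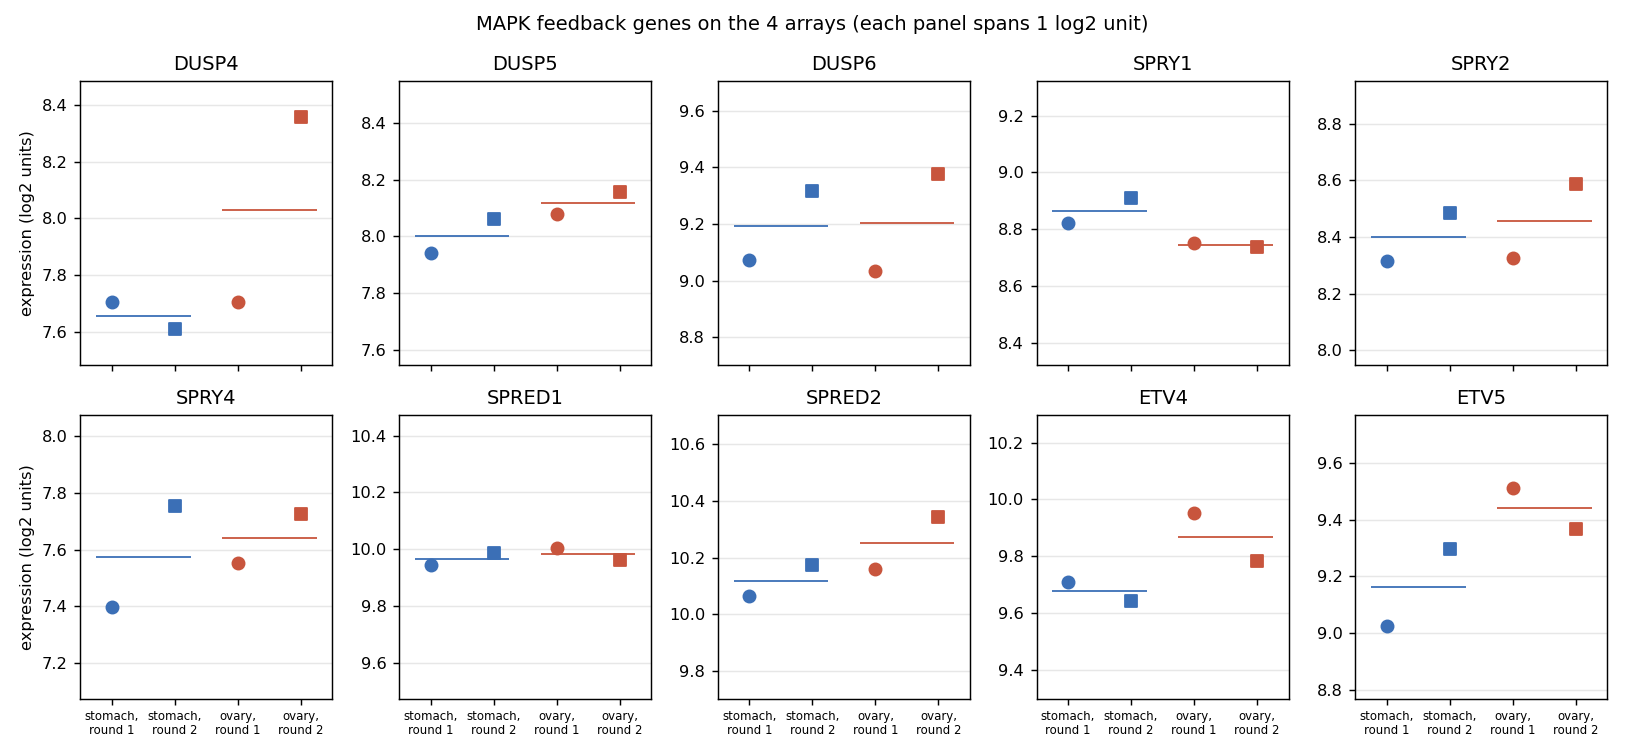
Expression (log2 units) of the 10 feedback genes on each array, with circles for round 1, squares for round 2, blue for stomach, red for ovary and bars for the mean of each site; every panel spans 1 log2 unit. DUSP4 stands high on the ovary array of round 2 alone (8.36), DUSP6, SPRY2 and SPRY4 are higher on both squares than on both circles, and SPRED1 is level within 0.060.

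DUSP4 is a nuclear phosphatase of MAP kinases (probe set 8150076). Its level was 7.70 in the stomach line of round 1, 7.61 in the stomach line of round 2, 7.70 in the ovary line of round 1 and 8.36 in the ovary line of round 2. A single array, the ovary line of round 2, was therefore high, 1.68-fold above the stomach line of the same round and 1.57-fold above the ovary line of round 1, and the other 3 arrays lay within 0.093 of each other. It was the only 1 of the 10 genes at least 1.5-fold apart in a comparison of 2 arrays, a size that 0.804% of all genes tested reached upwards between ovary and stomach in round 2 and 2.41% between rounds in the ovary. The range of DUSP4 was wider than that of 96.4% of genes tested. Its fitted difference was 0.37 ± 0.23 (limma's standard error) between ovary and stomach and 0.28 ± 0.25 between round 2 and round 1. Without the ovary array of round 2 these values were 0.046 and -0.093, so the higher mean in the ovary and in round 2 rests on that array.

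DUSP6, the cytoplasmic phosphatase with a strong preference for ERK (probe set 7965335), separated the rounds. It stood at 9.07 and 9.03 in the stomach and ovary lines of round 1 and at 9.32 and 9.37 in those of round 2. Both round 2 arrays were above both round 1 arrays, by 0.24 in the stomach and 0.34 in the ovary, with levels of 9.05 ± 0.028 (SD, n = 2) in round 1 and 9.34 ± 0.042 in round 2. The fitted round difference was 0.29 ± 0.072, a 1.22-fold difference with a 95% interval of 0.10 to 0.48 and an unadjusted limma p of 0.0114. It was larger in size than that of 87.8% of genes and did not pass adjustment over all genes (adjusted p = 0.287). Between the sites DUSP6 differed by 0.0099 ± 0.16, with opposite signs in the rounds (-0.040 and 0.059).

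DUSP5, a nuclear phosphatase specific to ERK (probe set 7930413), was at 7.94 and 8.06 in the stomach lines of round 1 and round 2 and at 8.08 and 8.15 in the ovary lines. The values of the sites met closely, the lower ovary value exceeding the higher stomach value by 0.016. The fitted differences were 0.11 ± 0.097 between sites and 0.099 ± 0.087 between rounds, each close to its standard error.

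SPRY2, a Sprouty protein that binds GRB2 and CBL (probe set 7972217), followed the course of DUSP6. Its level was 8.31 in the stomach line of round 1, 8.33 in the ovary line of round 1, 8.49 in the stomach line of round 2 and 8.59 in the ovary line of round 2. The rounds did not overlap. Between rounds SPRY2 differed by 0.22 ± 0.076, or 1.16-fold, with a 95% interval of 0.017 to 0.41 and an unadjusted limma p of 0.0390 (adjusted p = 0.316). Its site difference was 0.056 ± 0.13.

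SPRY4, a Sprouty that restrains signalling to ERK (probe set 8114797), was lowest in the stomach line of round 1. Values were 7.40 there, 7.55 in the ovary line of round 1, 7.75 in the stomach line of round 2 and 7.73 in the ovary line of round 2. Again both round 2 arrays exceeded both round 1 arrays, by 0.36 in the stomach and 0.17 in the ovary. The fitted round difference was 0.27 ± 0.085, or 1.20-fold, with a 95% interval of 0.040 to 0.49 and an unadjusted limma p of 0.0295 (adjusted p = 0.301), and the site difference was 0.064 ± 0.16.

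SPRY1 (probe set 8097282) went another way between sites. It was at 8.82 and 8.91 in the stomach lines and at 8.75 and 8.74 in the ovary lines, so both ovary arrays lay below both stomach arrays. Its site difference of -0.12 ± 0.090 was the only negative 1 of the 10, and its unadjusted limma p was 0.237. The round difference was 0.036 ± 0.091, which became -0.0100 after quantile normalization.

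The start regions of the 3 genes with separated rounds and the largest round differences among those, DUSP6, SPRY2 and SPRY4, are shown with that of SPRED1, the flattest gene of the group, as windows of 250 bases before to 50 bases after an annotated transcription start (RefSeq, GRCh38.p14). They are written 5′ to 3′ on the strand of the gene, and capitals mark CCGGAA, a sequence that ETS factors bind, on either strand. The windows are chr12:89352452-89352751 (minus strand) for DUSP6, chr13:80341077-80341376 (minus) for the most upstream of 3 listed starts of SPRY2, chr5:142324198-142324497 (minus) for SPRY4 and chr15:38252586-38252885 (plus) for SPRED1.
DUSP6: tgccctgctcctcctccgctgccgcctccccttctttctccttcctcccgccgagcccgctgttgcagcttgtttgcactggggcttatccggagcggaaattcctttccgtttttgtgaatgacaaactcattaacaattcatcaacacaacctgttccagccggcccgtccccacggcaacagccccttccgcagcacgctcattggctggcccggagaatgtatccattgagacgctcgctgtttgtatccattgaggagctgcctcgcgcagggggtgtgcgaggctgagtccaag
SPRY2: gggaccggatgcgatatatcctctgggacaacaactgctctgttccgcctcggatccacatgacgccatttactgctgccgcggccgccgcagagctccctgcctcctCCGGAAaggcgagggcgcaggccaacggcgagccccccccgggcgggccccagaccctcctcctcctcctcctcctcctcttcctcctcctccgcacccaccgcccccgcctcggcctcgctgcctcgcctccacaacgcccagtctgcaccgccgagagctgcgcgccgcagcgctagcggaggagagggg
SPRY4: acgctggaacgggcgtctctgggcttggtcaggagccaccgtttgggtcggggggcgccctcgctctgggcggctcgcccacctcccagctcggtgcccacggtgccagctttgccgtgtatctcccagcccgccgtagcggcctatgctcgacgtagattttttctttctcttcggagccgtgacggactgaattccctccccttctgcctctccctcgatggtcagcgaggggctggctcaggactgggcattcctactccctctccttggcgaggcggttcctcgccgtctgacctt
SPRED1: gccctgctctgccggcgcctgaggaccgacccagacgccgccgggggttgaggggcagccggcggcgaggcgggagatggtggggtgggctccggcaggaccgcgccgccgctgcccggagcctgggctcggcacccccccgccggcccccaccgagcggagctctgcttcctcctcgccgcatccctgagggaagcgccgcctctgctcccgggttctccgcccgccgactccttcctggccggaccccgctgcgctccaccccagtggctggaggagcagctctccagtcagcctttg

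Only the SPRY2 window of these 4 holds CCGGAA, 142 bases before the start. Other sequences that ETS factors bind, shorter ones included, were not searched for. The search covered 10 start windows of 6 of the genes (DUSP6, SPRY1, SPRY2, SPRY4, SPRED1 and SPRED2). CCGGAA was in 2 of the 10, the SPRY2 window above and the second start of SPRY1 (67 bases before it). Over all 35116 windows of the same length, 17.2% held it. The AP-1 element TGANTCA was found in 1 window, as TGACTCA and as TGAATCA at the second start of SPRED2, compared with 7.71% of all windows. The CRE element TGACGTCA (1.85% of all windows) and the CArG box bound by serum response factor (1.29%) were in none of the 10. All searches covered both strands, and matches of the 4 motifs did not overlap each other in these windows. A match is a run of letters and was not tested as a binding site.

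SPRED1, an inhibitor of RAS activation that brings the GTPase activator neurofibromin to the membrane (probe set 7982564), was the flattest gene. Its values were 9.94 and 9.99 in the stomach lines and 10.00 and 9.96 in the ovary lines. Neither site nor round separated them, with differences of 0.018 ± 0.087 and 0.0016 ± 0.071, and the sign of the round difference turned after quantile normalization (-0.031). The 95% interval of its round difference ran from -0.19 to 0.19. SPRED2, its paralogue (probe set 8052689), was at 10.06 and 10.17 in the stomach lines and at 10.16 and 10.34 in the ovary lines. The ovary line of round 2 was highest, and the rounds were apart by 0.014 between the nearest arrays. Its differences were 0.13 ± 0.11 between sites and 0.15 ± 0.093 between rounds.

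The ETS factors separated the sites. ETV5 (probe set 8092578) stood at 9.03 and 9.30 in the stomach lines of round 1 and round 2 and at 9.51 and 9.37 in the ovary lines. Both ovary arrays were above both stomach arrays, but the distance was 0.49 (1.40-fold) in round 1 and 0.072 in round 2, the stomach line of round 1 being the low array. The fitted site difference was 0.28 ± 0.13, or 1.21-fold, with a 95% interval of -0.068 to 0.63 and an unadjusted limma p of 0.0920 (adjusted p = 1). In size it exceeded that of 94.1% of genes tested, and without the stomach array of round 1 it was 0.14. Between rounds ETV5 differed by 0.27 in the stomach and by -0.14 in the ovary.

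ETV4 (probe set 8015806) was at 9.71 and 9.64 in the stomach lines and at 9.95 and 9.78 in the ovary lines. Again the sites did not overlap, with differences of 0.24 in round 1 and 0.14 in round 2, a fitted difference of 0.19 ± 0.10 and an unadjusted limma p of 0.129. ETV4 was the only 1 of the 10 with a lower mean in round 2, by -0.12 ± 0.11, and its difference was negative at both sites (-0.064 and -0.17). With 1 array per combination of site and round, a gene that separates the sites cannot also separate the rounds.

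**Figure D2:**
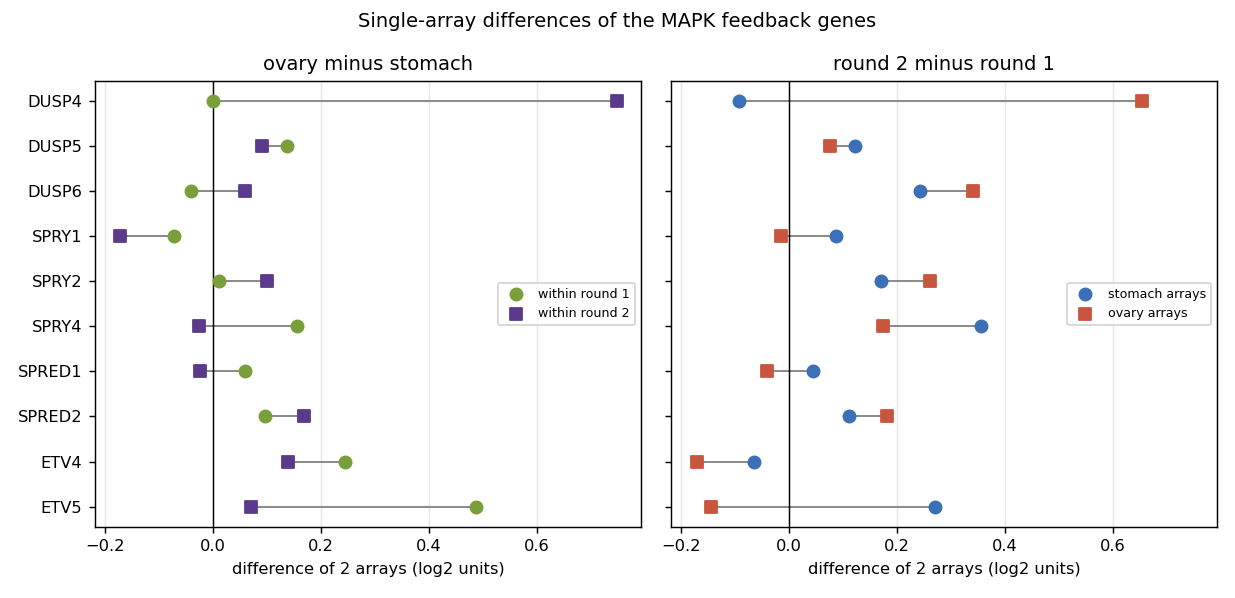
Difference of 2 single arrays (log2 units) for each feedback gene, on the left ovary minus stomach within round 1 (circles) and round 2 (squares), on the right round 2 minus round 1 in stomach lines (circles) and ovary lines (squares), joined by a grey line. DUSP6, SPRY2 and SPRY4 lie right of 0 in both round comparisons (0.17 to 0.36), ETV4 and ETV5 right of 0 in both site comparisons (0.072 to 0.49), and DUSP4 is far from 0 only where the ovary line of round 2 enters (0.75 and 0.65).

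Counted over the group, 9 of the 10 genes had a higher mean in ovary, where 50.6% of all genes tested did, and 9 of 10 had a higher mean in round 2, where 45.4% did. The first count fell to 5 without the stomach array of round 1 and to 6 without the ovary array of round 2, and the second to 7 after quantile normalization and without either stomach array. The median difference of the group was 0.090 between sites and 0.12 between rounds, with medians over all genes of 0.0016 and -0.019. Without the stomach array of round 1 the site median was 0.025, without the ovary array of round 2 it was 0.040, and without either of the other arrays it was 0.17. The round median was 0.058 without the ovary array of round 2, 0.21 without the ovary array of round 1, 0.19 without the stomach array of round 2 and 0.084 without the stomach array of round 1. DUSP5, SPRY2, SPRED2, ETV4 and ETV5 (5 of 10) were higher in ovary within both rounds (25.3% of all genes), and DUSP5, DUSP6, SPRY2, SPRY4 and SPRED2 (5 of 10) were higher in round 2 at both sites (29.0% of all genes). The sites did not overlap and ovary was higher for 3 genes (DUSP5, ETV4 and ETV5), against 13.4% of all genes, and stomach was higher for SPRY1, against 11.2%. The rounds did not overlap and round 2 was higher for 4 genes (DUSP6, SPRY2, SPRY4 and SPRED2), against 22.2%. With 10 genes chosen together these counts are a description. The epithelial markers, of which 6 of 6 had a higher mean in round 2 (median 0.14; 3 of 6 and 0.028 without the ovary array of round 1), had the same sign between rounds, and their part in the round difference of the feedback genes was not tested.

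No feedback gene passed the test over all genes. Limma called 0 of 14547 genes between sites and 0 between rounds (0% each, adjusted p under 0.05). At an unadjusted p under 0.05, none of the 10 passed between sites, where 2.60% of all genes did, and 3 passed between rounds (DUSP6, SPRY2 and SPRY4, all higher in round 2), where 7.64% of all genes were higher with such a p. With the site as a block the unadjusted limma p of SPRY2 was 0.0586, and after quantile normalization it was 0.0620, so that in either fit DUSP6 and SPRY4 alone of these 3 stayed under 0.05. When each array was left out in turn, the unadjusted limma p ranged from 0.0270 to 0.0415 for DUSP6, from 0.0342 to 0.105 for SPRY2 and from 0.0192 to 0.131 for SPRY4. The smallest adjusted p of the group was 0.287 between rounds, and all site values were 1. The unadjusted 95% intervals of the fitted site differences ran from -0.24 to 0.99 in DUSP4 and from -0.068 to 0.63 in ETV5.

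**Figure D3:**
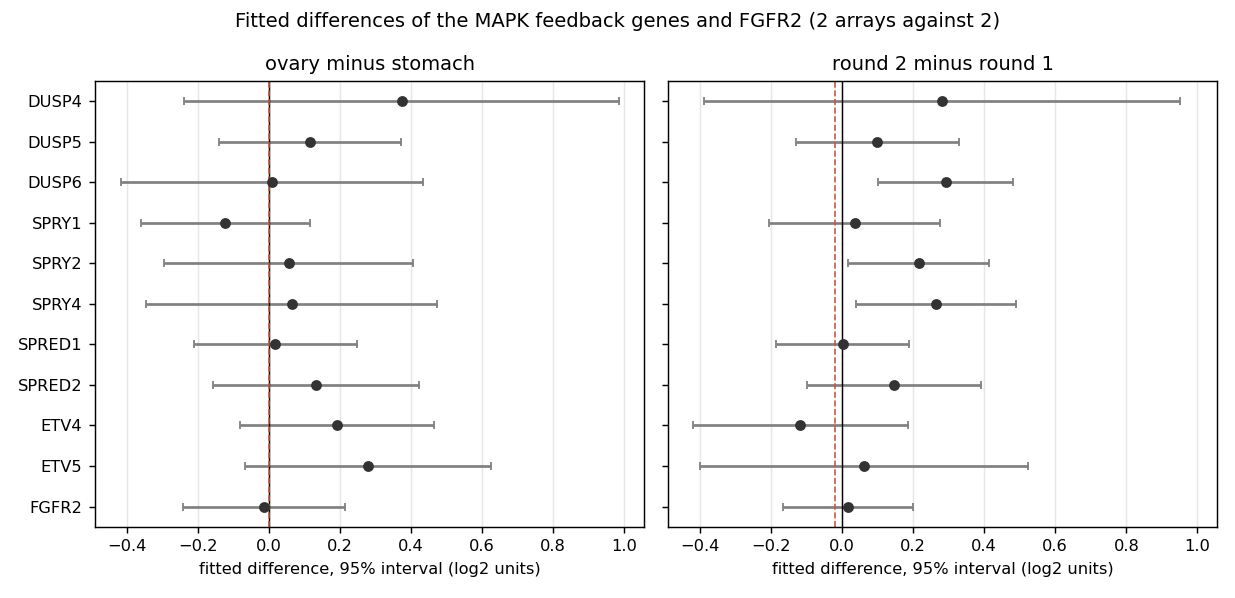
Fitted difference (log2 units, points) with its unadjusted 95% interval from limma (bars) for the 10 feedback genes and FGFR2, 2 arrays against 2; the red dashed line is the median of all genes tested. All site intervals span 0, and the round intervals of DUSP6, SPRY2 and SPRY4 lie above 0 (lower bounds 0.10, 0.017 and 0.040), none passing adjustment over all genes.

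Upstream of the feedback genes, receptors and ligands of the FGF family were not called (0 of 6 receptor genes and 0 of 11 ligand genes tested, in either comparison). Of the receptor list, 3 of 6 were higher in ovary (1 without the stomach array of round 2) and 2 of 6 in round 2 (1 without the ovary array of round 1), with medians of 0.011 and -0.049. The co-receptor KLB differed by -0.17 ± 0.090 between sites, the decoy receptor FGFRL1 by 0.064 ± 0.12 between sites and -0.17 ± 0.074 between rounds, FGFR3 by 0.12 ± 0.10 between rounds, and FGFR4 by 0.034 ± 0.099 and -0.067 ± 0.081. Of the ligand list, 7 of 18 genes lay below the signal minimum, and the 11 above it had mean levels from 5.79 (FGF21) to 7.41 (FGF4). Of the 11 tested, 4 were higher in ovary (2 to 8 when each array was left out) and 2 in round 2 (1 without the ovary array of round 2), with medians of -0.034 (0.058 without the stomach array of round 1) and -0.18. FGFBP1, a carrier that releases FGFs from the matrix and is counted here with the ligands, had the largest round difference of that list, with levels at 6.51 and 7.08 in the stomach lines and at 6.69 and 7.29 in the ovary lines. It was higher in round 2 at both sites, by 0.58 ± 0.11 (adjusted p = 0.287 in limma). FGF8 (-0.42 ± 0.13) and FGF23 (-0.42 ± 0.13) were lower in round 2, FGF23 also between sites (-0.23 ± 0.21), and FGF19 differed by 0.092 ± 0.11 between sites.

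Of the cascade between receptor and ERK, 16 of 22 listed genes had a single-gene probe set and 0 were called. Between rounds 12 of 16 were higher in round 2 (median 0.070), and between sites 7 of 16 were higher in ovary (median -0.032). The site count was 9 of 16 without the ovary array of round 1 (median 0.026) and 5 of 16 without the ovary array of round 2 (median -0.074). MAP2K1, which encodes MEK1, was at 9.18 and 9.35 in the stomach lines and at 9.18 and 9.65 in the ovary lines. Its ovary line of round 2 was the highest array, as for DUSP4, and its round difference was 0.32 ± 0.12. The RAS exchange factor SOS2 (0.26 ± 0.073) and the scaffold KSR1 (0.26 ± 0.10) were next between rounds. The docking protein GAB1 differed by -0.20 ± 0.089 between sites, MAP2K1 by 0.16 ± 0.18 and HRAS by 0.15 ± 0.094.

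Other negative regulators were mixed, with 5 of 10 tested genes higher in ovary and 6 of 10 in round 2, medians of -0.0012 and 0.0054, and 0 called. ERRFI1, the feedback inhibitor of the EGF receptor also called MIG6, was at 10.90 and 11.45 in the stomach lines and at 11.70 and 11.77 in the ovary lines. Both ovary arrays lay above both stomach arrays and the stomach line of round 1 was lowest, as in ETV5, with a site difference of 0.56 ± 0.20 and an unadjusted limma p of 0.0412 (adjusted p = 1). Its round difference was 0.31 ± 0.29. RASA2, a GTPase activator for RAS, differed by 0.33 ± 0.095 between rounds, and SPRED3, a further SPRED gene, by -0.26 ± 0.093. Between sites CBL, a ubiquitin ligase for receptors, differed by -0.10 ± 0.15 and PEA15, which binds ERK, by 0.082 ± 0.095.

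Among the other DUSP phosphatases, DUSP1 and DUSP10, which act mainly on p38 and JNK, shared the high value of DUSP4 in the ovary line of round 2. DUSP1 was at 9.40 and 9.48 in the stomach lines, 8.94 in the ovary line of round 1 and 10.45 in that of round 2. DUSP10 was at 7.41, 7.29, 6.94 and 8.40 on the same arrays. Unlike DUSP4, both were lowest in the ovary line of round 1. Between rounds DUSP1 differed by 0.79 ± 0.36, DUSP10 by 0.67 ± 0.40 and DUSP18 by 0.46 ± 0.080, and between sites DUSP10 by 0.32 ± 0.49, DUSP1 by 0.25 ± 0.50 and DUSP14 by 0.25 ± 0.15. In this list 9 of 12 genes were higher in ovary and 8 of 12 in round 2 (medians 0.063 and 0.072), and 0 were called. Without the ovary array of round 2 the site count was 6 of 12 with a median of -0.017, and without that of round 1 it was 10 of 12 with a median of 0.16. The round median ranged from 0.026 without the ovary array of round 1 to 0.20 without the stomach array of round 2. Of the other ETS factors tested, 3 of 12 were higher in ovary (7 of 12 with a median of 0.064 without the ovary array of round 1, 6 of 12 with a median of 0.0030 without the stomach array of round 2) and 9 of 12 in round 2 (medians -0.051 and 0.17, the latter 0.089 without the stomach array of round 2), with 0 called. ETV3 (0.37 ± 0.12), ELK3 (0.29 ± 0.088) and SPDEF (0.25 ± 0.069) differed most between rounds, and GABPA (0.18 ± 0.19), ETS2 (0.14 ± 0.17) and ELF1 (-0.14 ± 0.12) between sites. The third PEA3 factor, ETV1, had differences of -0.018 between sites and 0.11 between rounds, and it is named beside ETV4 and ETV5 although its values did not select it.

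Further response genes of ERK, which include immediate early genes and ligands of the EGF receptor, were mostly higher in round 2, without a call. Of 27 tested, 23 were higher in round 2 (median 0.30), where 45.4% of all genes were, 17 of 27 in the stomach lines (median 0.10) and 23 of 27 in the ovary lines (median 0.49). Without the ovary array of round 2, 17 of 27 were higher in round 2, with a median of 0.12. At an unadjusted limma p under 0.05, 8 of 27 were higher in round 2, beside 7.64% of all genes. Between sites 21 of 27 were higher in ovary (median 0.22), where 50.6% of all genes were. Without the ovary array of round 2 this count was 10 and the median -0.065, and without the stomach array of round 1 they were 16 and 0.091. FOS, a component of AP-1, was at 9.32 and 10.19 in the stomach lines and at 8.94 and 9.67 in the ovary lines. It was higher in round 2 at both sites (0.80 ± 0.22) and lower in ovary in both rounds (-0.45 ± 0.38). HBEGF, a ligand of the EGF receptor, differed by 1.15 ± 0.47 between sites and 0.84 ± 0.59 between rounds and was highest in the ovary line of round 2 (9.27). The stress-induced factor ATF3 was also highest there (8.91, with 7.89 to 8.05 on the other arrays), and its round difference was 0.53 ± 0.29. The receptor EPHA4 differed by 0.50 ± 0.12 between sites (unadjusted limma p of 0.00936, adjusted p = 1). Immediate early genes also respond to handling of cells, and the part of handling in the high DUSP4 value was not tested.

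**Figure D4:**
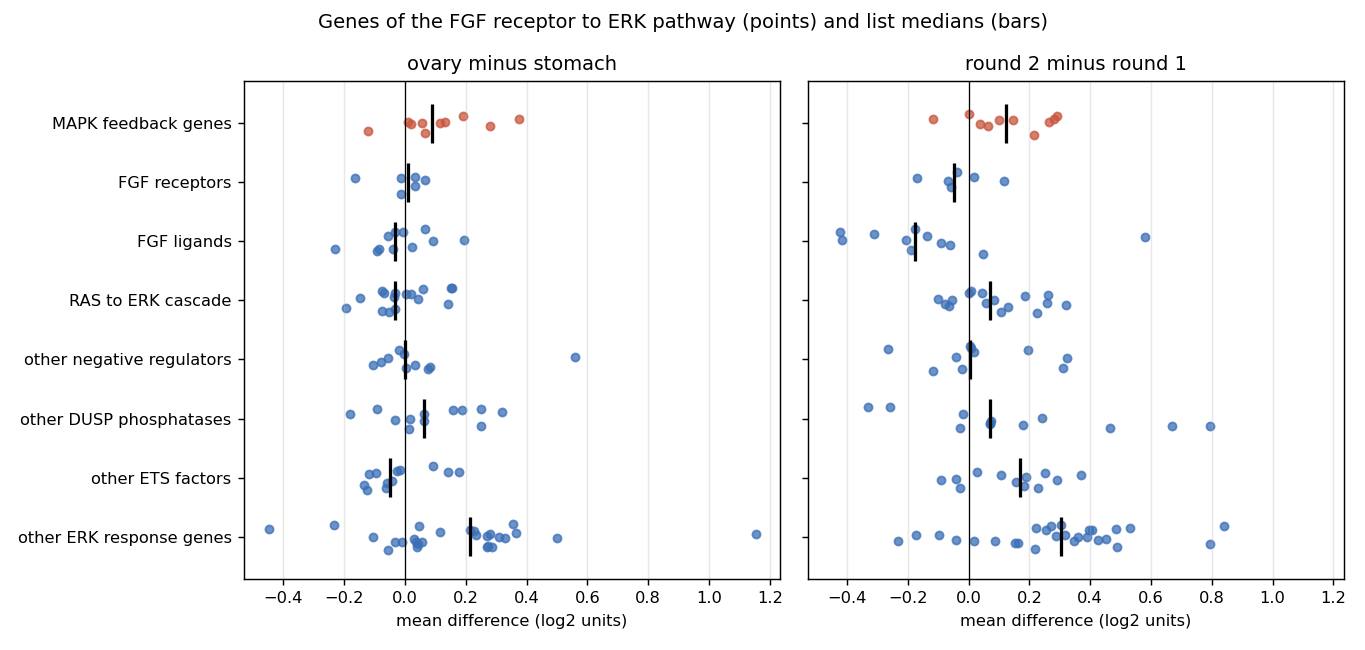
Mean difference (log2 units) of each tested gene in 8 lists of the FGF receptor to ERK pathway, ovary minus stomach on the left and round 2 minus round 1 on the right, with a black bar at each list's median and the feedback genes in red; vertical scatter only separates points. The round medians are 0.12 for the feedback genes and 0.30 for the other ERK response genes, against -0.049 for FGF receptors and -0.18 for FGF ligands, and no gene in any of the lists passed adjustment over all genes.

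Likeness of profiles was measured as the Euclidean distance over the 4 arrays after subtracting each gene's mean. DUSP6 and SPRY2 were each other's nearest among the 10 (0.089 log2 units), and SPRY2 was also nearest to SPRY4 (0.14). DUSP5 and SPRED2 were each other's nearest (0.077). ETV5 was nearest to DUSP5 (0.25) and ETV4 to SPRED1 (0.21), so the PEA3 factors were not each other's closest. DUSP4 had no close neighbour in the group, the nearest being SPRED2 at 0.44. Over all genes tested, the 5 nearest to DUSP4 were SRSF6, a splicing factor (0.073), the immediate early gene IER2 (0.073), RGS2, a regulator of G protein signalling (0.083), SPATA31G1 (0.099) and the pseudokinase gene TRIB1 (0.11). Picked for likeness to DUSP4, each of the 5 necessarily had its highest value in the ovary line of round 2. IER2, for example, was at 8.65 there and reached at most 8.07 on the other arrays.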

How the data were processed

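Biotin-labelled total RNA was read on Affymetrix arrays, per the labels' protocols. The authors deposited log2 expression values, 1 row per probe set and 1 column per array. Affymetrix Expression Console is in the submitters' processing notes. Not given in the sources used here: background correction, normalization and genome build. If arrays were scaled to each other, a shift of all transcripts would not show. Rows with 1 gene symbol in the platform annotation were named through RefSeq (GRCh38.p14) by gene ID, which found 19429 of 19460, and the probe set with the highest mean stood for a gene.

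The fits used limma 3.58.1 under R 4.3.3 (lmFit and then eBayes, two-sided, Benjamini-Hochberg over 14547 genes) on all 4 arrays, for sites and for rounds. The site fit was also run on simulated independent arrays with larger differences than those of the feedback genes. That run does not test the fit at the sizes reported here. An exact two-sided permutation test of 2 arrays against 2 cannot go below p = 0.333 and was not used. Differences of 2 single arrays have no test. The feedback genes, the pathway lists, the markers and the rule for naming genes (in each list, the 3 largest site and the 3 largest round differences; FGFR2; nearest profiles) were chosen with earlier results of these data known, and genes named by size were picked on these arrays. Alternatives were other signal minimums, quantile normalization, median centring, other variance priors, the replicate block, the mean of all probe sets, leaving out each array and an adjusted p threshold of 0.10. The plots were made in matplotlib 3.10.9.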

Additional observations from a re-analysis of the deposited data

Results flagged for a closer look

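ETV5 differed between rounds in opposite directions at the 2 sites. It was higher in round 2 by 0.27 log2 units in the stomach lines and differed by -0.14 in the ovary lines, each larger in size than the median single-array difference of all genes. With 1 array per combination, the difference between these differences was not tested.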

How the results depend on the processing

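No alternative on all arrays for which calls were counted called a gene in either comparison. In these, 0 genes passed between sites and 0 between rounds, also at the adjusted p threshold of 0.10. Calls were not counted for the mean of all probe sets. With the replicate block (of the round for sites and of the site for rounds) 0 genes were called, and the number with an unadjusted p under 0.05 went from 378 to 916 between sites and from 2178 to 2358 between rounds. The shared number is the implantation round, and deviations from the site means correlated at 0.411 across genes between arrays of 1 round (2 pairs); the block changed no call of a feedback gene. With the block, the unadjusted limma p of SPRY2 between rounds was 0.0586.

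Of 240 single-gene values under the alternatives, 224 kept their direction and 16 turned. Many of the 240 could not turn. Other signal minimums, variance priors and the block do not alter a difference. The mean of all probe sets does not either where a gene has 1 probe set, as each feedback gene has. After quantile normalization the round difference was -0.0100 for SPRY1 and -0.031 for SPRED1. Leaving out 1 array turned the others. The site difference then ranged from -0.16 to 0.18 for DUSP6, -0.074 to 0.19 for SPRY2, -0.11 to 0.24 for SPRY4 and -0.0037 to 0.040 for SPRED1. The round difference ranged from -0.093 to 0.65 for DUSP4, -0.050 to 0.12 for SPRY1, -0.029 to 0.032 for SPRED1, -0.24 to 0.0053 for ETV4 and -0.18 to 0.31 for ETV5. The round differences of DUSP6 (0.26 to 0.32), SPRY2 (0.17 to 0.27) and SPRY4 (0.19 to 0.34) and the site differences of ETV4 (0.11 to 0.28) and ETV5 (0.14 to 0.41) kept their sign. The count of feedback genes higher in ovary ranged from 5 to 9 and that higher in round 2 from 7 to 10. Fits without an array leave 1 array in a group, which is assumed to vary like the other group. Counts of the pathway lists without each array were added after the data were seen.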

Other observations

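The deposited value of DUSP4 was exactly the same on both round 1 arrays. Such ties were common in the table, 1348 of 33297 rows (4.05%) having equal values on these arrays and 2.99% to 3.97% on the other pairs of arrays.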
